A study of Mus musculus with 12 samples.

Results

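The 10 genes described here encode enzymes and chaperones that fold, hydroxylate or trim procollagen: Serpinh1, Crtap, Fkbp10, P4ha1, P4ha2, Plod1, Plod2, Plod3, Bmp1 and Pcolce. They were taken by symbol, and all 10 of 10 were found among the 53715 genes of the 5-library PSC table, the 48709 genes of the table of PSC control 3 and the 46517 genes of the osteoclast table. The study deleted Prmt5, an arginine methyltransferase, with Ctsk-Cre and sequenced RNA from 12 libraries of C57BL/6 mice, 3 per group. The Prmt5 genotype was flox/Δ in mice that gave cKO PSCs and flox/+ in mice that gave control PSCs. Ctsk-Cre and the CAG-CAT-EGFP reporter were present in both groups, so the controls also had 1 floxed allele that Cre can delete. PSCs, periosteal stem cells, were sorted after enzymatic digestion of the periosteum of mice aged 3 to 6 weeks. The cKO and control osteoclasts were grown in culture under stimulation by RANKL, an osteoclast-inducing cytokine, over 72 h, and their labels give 11 weeks of age. The sources used here do not say whether osteoclast controls carried Cre. Ctsk-Cre is active both in osteoclasts and in PSCs.

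Procollagen chains enter the endoplasmic reticulum as unfolded polypeptides. Prolyl 4-hydroxylases make the triple helix stable at body temperature, lysyl hydroxylases prepare sites for glycosylation and crosslinking, and chaperones such as the product of Serpinh1 hold the folded helix until it is exported. Outside the cell, the proteinase encoded by Bmp1 removes the C-terminal propeptide, and the product of Pcolce enhances that cleavage. In humans, mutations in several of these genes cause brittle bones.

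The PSC libraries rested on 13928745, 9932976 and 11625516 mapped reads in cKO, against 11376003, 10789165 and 6958265 in control. Control 3 was deposited in a table of its own and stood apart, with a correlation of 0.842 to 0.860 with the other 5 libraries across genes, against 0.948 to 0.982 among those. Tests in PSCs therefore used the 3 cKO libraries and controls 1 and 2, and control 3 is given beside them. Prmt5 had 8.40, 6.31 and 8.08 RPKM in the PSC libraries labelled cKO, against 6.29, 8.31 and 4.32 RPKM in control, a log2 change of 0.05 (SE 0.17, adjusted p = 0.871, limma). The Prmt5 level in these libraries thus did not separate the PSC groups, and RPKM over the whole gene does not show whether the floxed part was lost. Apart from these libraries, the study reported lower Prmt5 mRNA and protein in cKO PSCs. In osteoclasts Prmt5 fell to 28.8, 37.8 and 35.3 CPM in cKO, against 58.5, 71.7 and 67.6 CPM in control, CPM being counts scaled to library size with TMM factors (log2 fold change -1.01, adjusted p = 0.0349, edgeR), but this call was kept in only 4 of 11 alternatives. Among those that lost it, the adjusted p was 0.055 with DESeq2, 0.071 with 10 reads in every library, 0.281 without control 2, 0.116 without control 3, 0.103 without cKO 1 and 0.132 without cKO 3. Over all 11 the log2 fold change stayed between -1.10 and -0.85. The genes listed here as PSC markers, Ctsk, Postn, Prrx1, Pdgfra, Itgav and Cd200, were above 0 in every PSC library. Not all of them are part of the definition by which PSCs were sorted. Their summed level was 437 to 475 RPKM in cKO, against 738 to 1006 RPKM in control. A sum weighs abundant genes most, and of these 6 only Postn passed the threshold, by falling (limma). The median log2 fold change of the 6 was -0.20, against 0.14 over all genes tested, and 1 of them was above 0. For its own set of progenitor and stem cell markers, the study reported no change of mRNA in cKO PSCs. Of the markers of other cells, the summed endothelial markers Pecam1, Cdh5 and Kdr did not overlap between the groups, at 3.70 to 9.40 RPKM in cKO, against 0.806 to 1.98 RPKM in control. Pecam1 was the 1 of these 3 that was tested, and it rose. Over all 6 libraries the ranges of the red blood cell, chondrocyte, and osteoblast and osteocyte lists overlapped. Summed red blood cell markers were 182 to 860 RPKM in cKO, against 32.9 to 1248 RPKM in control. They overlapped only through control 3 at 1248 RPKM, since controls 1 and 2 had 47.2 and 32.9 RPKM. In the 5 libraries tested, 4 of these 5 genes rose, namely Hba-a1, Hba-a2, Hbb-bs and Hbb-bt (limma). Chondrocyte markers were 4013 to 7134 RPKM in cKO, against 1723 to 4114 RPKM in control. Osteoblast and osteocyte markers summed to 4803 to 7281 RPKM in cKO, against 5140 to 11342 RPKM in control. In the libraries tested all 6 of them had an unadjusted p under 0.05, and Dmp1 and Phex fell past the threshold (limma). Their median log2 fold change was -0.78, against 0.14 over all genes tested, and 1 of the 6 was above 0. The part of these cell types in the results below was not tested. In such bulk samples fewer cells of a type and less RNA per cell cannot be told apart.

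For 3 members the bases before the annotated start are shown, because Plod1 was the one member past the threshold in PSCs, P4ha1 differed with opposite signs in the cell types without passing the threshold, and Serpinh1 is a known target of the heat shock response, whose genes Hspa1a and Hspa1b fell. They are the 250 bases upstream of the RefSeq start in GRCm38.p6, on the strand of the gene, with capitals marking the matches described after them. Plod1 lies at chr4:147936777-147937026 on the minus strand, P4ha1 at chr10:59323046-59323295 on the plus strand and Serpinh1 at chr7:99353240-99353489 on the minus strand.
Plod1: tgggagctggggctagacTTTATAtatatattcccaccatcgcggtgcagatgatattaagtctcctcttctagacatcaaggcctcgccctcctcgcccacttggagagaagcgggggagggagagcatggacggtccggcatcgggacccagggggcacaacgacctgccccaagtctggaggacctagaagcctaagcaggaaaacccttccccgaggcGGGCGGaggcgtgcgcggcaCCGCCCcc
P4ha1: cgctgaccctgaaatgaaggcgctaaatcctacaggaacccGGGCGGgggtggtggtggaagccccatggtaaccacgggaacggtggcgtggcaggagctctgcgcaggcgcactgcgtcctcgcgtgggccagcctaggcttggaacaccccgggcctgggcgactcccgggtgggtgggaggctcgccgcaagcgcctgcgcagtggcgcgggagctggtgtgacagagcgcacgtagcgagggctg
Serpinh1: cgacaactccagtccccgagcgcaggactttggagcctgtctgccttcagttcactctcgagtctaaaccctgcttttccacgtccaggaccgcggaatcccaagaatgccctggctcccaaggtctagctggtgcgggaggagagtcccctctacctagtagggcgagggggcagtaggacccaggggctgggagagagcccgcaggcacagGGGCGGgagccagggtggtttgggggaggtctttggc

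Of the members, 7 had an entry among the RefSeq promoters, and letters were searched on both strands. The GC box GGGCGG was found in the windows of Serpinh1, P4ha1, P4ha2, Plod1 and Pcolce, that is 5 of 7, and in 32.7% of all 32851 windows of this length. TATAAA was found for Plod1 and Crtap, and in 12.4% of all windows. CCAAT was found only for Plod3 among the 7, and in 33.8% of all windows. The core of the heat shock element, GAANNTTC, present in 6.69% of all windows, and the ER stress element, CCAAT and CCACG with 9 bases between them, present in 0.113%, were in none of the 7. These letters may lie outside the windows. The window of Pcolce holds annotated exons of Pcolce itself and that of Plod3 holds exons of Znhit1, and the windows of Pcolce and P4ha2 lie inside the deposited span of their own gene, so these are not plain upstream sequence and none of the 3 is printed. Without the windows of Pcolce and Plod3, 4 of 5 held the GC box.

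In PSCs the lysyl hydroxylase Plod1 was the 1 member of 10 that rose past the threshold, and none fell. Plod3 and P4ha1 were higher by a similar size and missed it, Bmp1 was lower and missed it, and the 3 chaperones differed little. Over all 11045 genes tested 6.99% rose and 1.39% fell (772 and 153 genes, adjusted p under 0.05, limma on log2(RPKM + 1)). The median log2 fold change of the members was 0.13, against 0.14 over all genes tested. With DESeq2 size factors the median over all genes moved to 0.00 and that of the members to -0.03, and the share of calls that were higher moved to 59.1%, against 83.5% with RPKM as deposited, so changes of the members are best read against that shift of 0.14. RPKM, reads scaled to exon length and to the mapped reads of the library, allows levels of different genes to be set beside each other. In every PSC library all 10 members stood above the 94th percentile of the 46654 genes named in both PSC tables, the lowest being Plod3 at 94.3 and the highest Serpinh1 at 99.97.

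**Figure D1:**
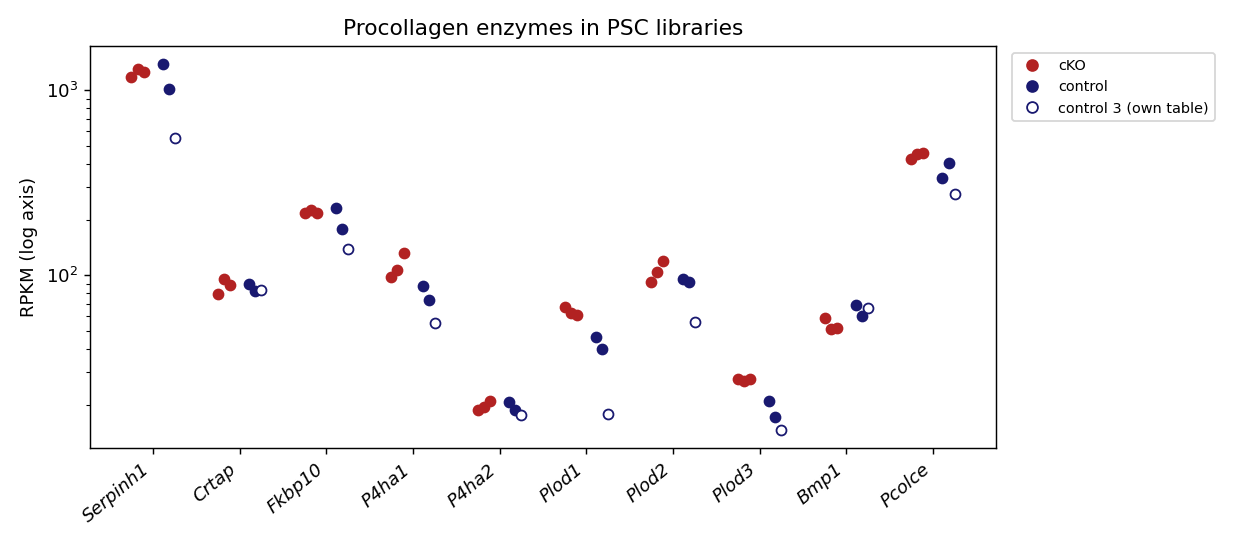
RPKM (log axis) of the 10 members in each PSC library, cKO left and control right of each gene. P4ha1, Plod1, Plod3 and Pcolce were higher and Bmp1 lower in all 3 cKO libraries than in all 3 controls, and control 3 was the lowest library for 8 of the 10.

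Serpinh1 (chromosome 7:99345376-99353239, minus strand, GRCm38), which encodes the collagen chaperone HSP47, was the most abundant member. It had 1184, 1307 and 1250 RPKM in cKO PSCs, against 1383, 1018 and 555 RPKM in control PSCs. The cKO libraries lay between controls 1 and 2 and above control 3. The log2 fold change came to 0.07 (SE 0.16, adjusted p = 0.813). Crtap (9:114375134-114390675, minus strand), a partner in the complex that 3-hydroxylates proline, had 79.0, 95.7 and 88.8 RPKM in cKO, against 89.9, 82.0 and 83.7 RPKM in control. Its groups overlapped, and the log2 fold change came to 0.03 (SE 0.14, adjusted p = 0.917). Fkbp10 (11:100415697-100424824, plus strand), a prolyl isomerase of the endoplasmic reticulum, had 216, 225 and 217 RPKM in cKO, against 231, 178 and 139 RPKM in control. Only control 1 was above the cKO libraries, and the log2 fold change came to 0.11 (SE 0.15, adjusted p = 0.664). The sign of all 3 turned with size factors, to -0.10 for Serpinh1, -0.14 for Crtap and -0.06 for Fkbp10.

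P4ha1 (10:59323296-59373304, plus strand) encodes a catalytic subunit of prolyl 4-hydroxylase. It had 97.7, 107 and 131 RPKM in cKO PSCs, against 87.3, 73.8 and 55.3 RPKM in control PSCs. Every cKO library was above every control. The log2 fold change came to 0.46 (SE 0.17, adjusted p = 0.133). P4ha2 (11:54100095-54131665, plus strand), the alternative catalytic subunit, had 18.7, 19.4 and 20.9 RPKM in cKO, against 20.7, 18.6 and 17.5 RPKM in control. Its groups overlapped, with a log2 change of 0.00 (SE 0.13, adjusted p = 0.994) that became -0.16 with size factors.

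Plod1 (4:147909753-147936767, minus strand), the lysyl hydroxylase that acts in the helical part of the chain, had 67.5, 62.1 and 60.8 RPKM in cKO PSCs, against 46.2, 39.8 and 17.8 RPKM in control PSCs. The groups did not overlap. It rose, by a log2 fold change of 0.55 (adjusted p = 0.0488 with limma, SE 0.13), and the mean was 63.5 ± 3.58 RPKM in cKO (SD, n = 3), against 43.0 ± 4.58 RPKM in controls 1 and 2 (SD, n = 2). This call was lost in 13 of 15 alternatives, among them size factors (0.39, adjusted p = 0.145), all 6 libraries (0.96, adjusted p = 0.225) and edgeR on recovered reads (0.40, adjusted p = 0.11). It was also lost on leaving out any 1 of the 5 libraries, where 1 control remained if a control was removed. Its direction was kept in all 15, over a range of 0.39 to 0.96. Plod3 (5:136987019-136996648, plus strand), which also carries glycosyltransferase activity, had 27.6, 26.9 and 27.3 RPKM in cKO, against 21.0, 17.1 and 14.6 RPKM in control. These groups did not overlap either, and the log2 fold change came to 0.50 (SE 0.13, adjusted p = 0.0641). It was called under 2 of 15 alternatives, a trended prior (adjusted p = 0.0403) and a mean of at least 5 RPKM (adjusted p = 0.0375). Plod3 overlaps Znhit1 on the other strand, which had 8.84, 9.96 and 8.37 RPKM in cKO, against 7.56, 7.62 and 8.11 RPKM in control. Plod2 (9:92542223-92608428, plus strand), the hydroxylase of the telopeptides, had 91.7, 104 and 120 RPKM in cKO, against 95.4, 92.1 and 55.6 RPKM in control. Its groups overlapped, with a log2 change of 0.16 (SE 0.15, adjusted p = 0.538).

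Bmp1 (14:70474557-70520260, minus strand), the procollagen C-proteinase, had 58.9, 50.9 and 51.8 RPKM in cKO PSCs, against 69.1, 60.2 and 66.3 RPKM in control PSCs. It was the only member with every cKO library below every control. The log2 fold change came to -0.26 (SE 0.14, adjusted p = 0.267) and -0.43 with edgeR on recovered reads (adjusted p = 0.0804). Pcolce (5:137605103-137613784, minus strand), the enhancer of that proteinase, went the other way, with 423, 455 and 457 RPKM in cKO, against 337, 402 and 276 RPKM in control. The groups did not overlap, and the log2 fold change came to 0.27 (SE 0.13, adjusted p = 0.242). Across all 6 libraries, 4 of 10 members were higher without overlap, against 20.1% of 10943 genes, and 1 of 10 was lower without overlap, against 6.78%. With 3 libraries against 3 the smallest two-sided exact permutation p is 0.1.

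**Figure D2:**
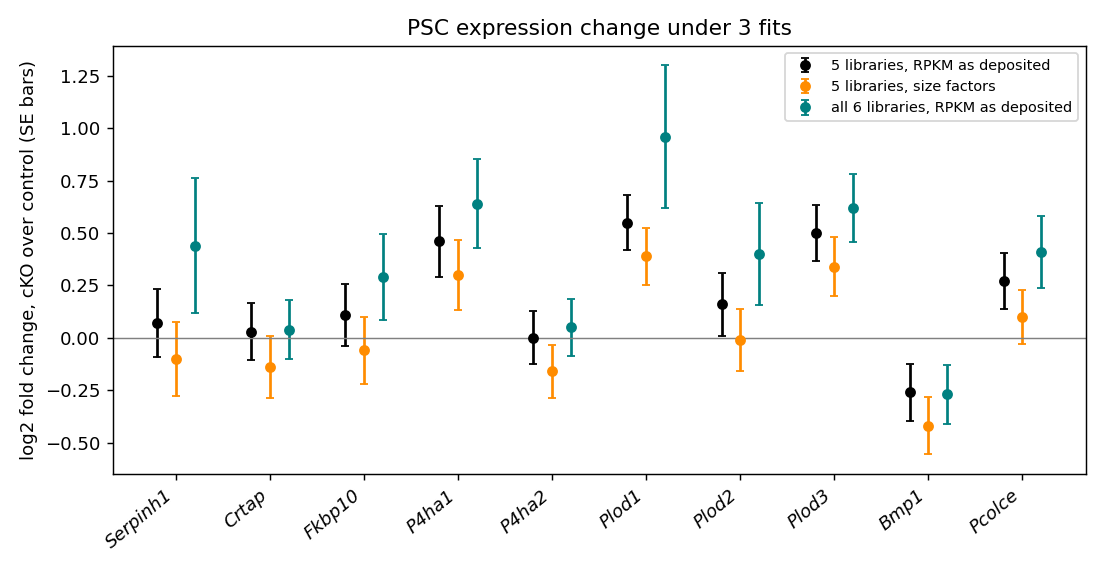
Log2 fold change of cKO over control in PSCs for the 10 members, with SE bars, from limma on 5 libraries, on 5 libraries after size factors and on all 6 libraries. Size factors moved every member down, and Serpinh1, Crtap, Fkbp10, P4ha2 and Plod2 fell below 0 with them.

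Of 11 genes of fibrillar collagens, the substrates of these enzymes, 4 fell in cKO PSCs and none rose, and 2 of the 11 had a log2 fold change above 0. Of the 4, Col3a1 had a log2 fold change of -0.75 (adjusted p = 0.0167), Col1a1 of -0.82 (adjusted p = 0.0231), Col1a2 of -0.62 (adjusted p = 0.0381) and Col5a1 of -0.55 (adjusted p = 0.0383, limma). With all 6 libraries none of the 4 was past the threshold, and Col1a1 had -0.19 (adjusted p = 0.867). Control 3 had 3104 RPKM of Col1a1, against 12918 and 10117 RPKM in controls 1 and 2. Summed over Col1a1, Col1a2, Col3a1, Col5a1 and Col5a2, the level was 12105, 12700 and 12295 RPKM in cKO, against 22705, 18728 and 8241 RPKM in control.

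Set against that sum within each library, all 10 members were higher in the 3 cKO libraries than in controls 1 and 2, as were 82.6% of 10943 genes, and 7 of 10 were higher than in all 3 controls, against 15.2% of genes. The sum itself was lower in cKO than in controls 1 and 2, so the first count is not particular to the members. Of the 7 in the second count, P4ha1, Plod1, Plod3 and Pcolce were already higher without overlap in RPKM. The others, Serpinh1, Plod2 and Fkbp10, had their lowest RPKM in control 3, where the sum was lowest too, at 8241 RPKM. The log2 ratio of Plod1 was -7.49, -7.67 and -7.66 in cKO, against -8.94, -8.88 and -8.85 in control. Plod1 was the member whose 3 controls lay closest together on this scale, and its difference was 1.30 against controls 1 and 2 and 1.28 against all controls. Serpinh1 had log2 ratios of -3.35, -3.28 and -3.30 in cKO, against -4.04, -4.20 and -3.89 in control. Bmp1 had the smallest difference, 0.47 against controls 1 and 2 and 0.02 against all controls. These ratios have no test, and they share their denominator, so they move together when the collagens move.

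**Figure D3:**
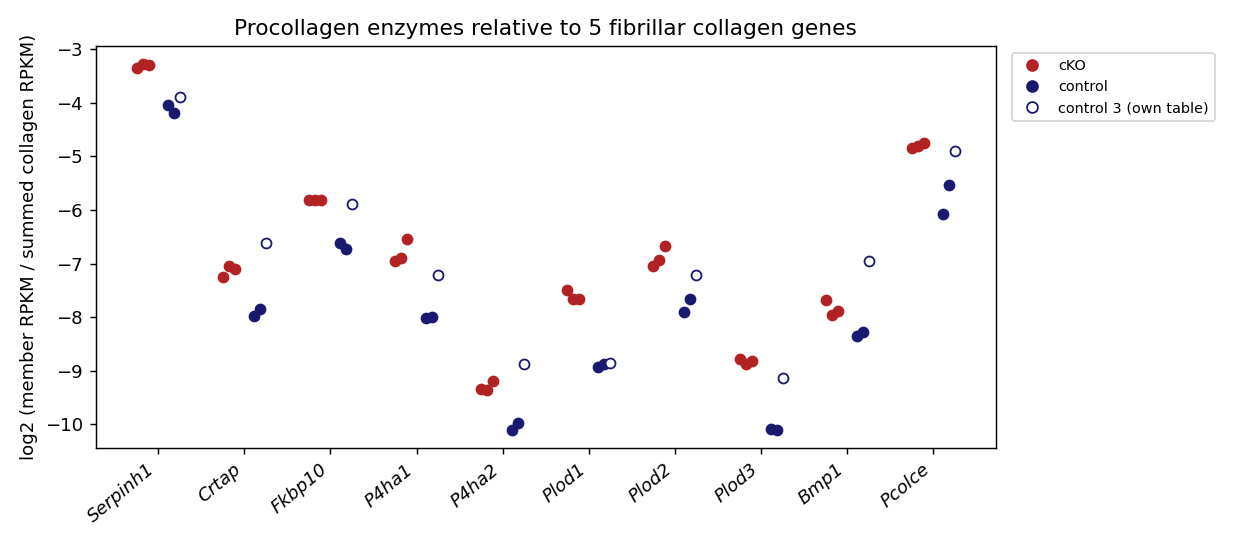
Log2 of each member's RPKM over the summed RPKM of 5 fibrillar collagen genes in each PSC library. Every cKO point is above controls 1 and 2, as for 82.6% of all genes on this scale, while control 3 is above the cKO points for P4ha2, Crtap and Bmp1.

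Genes that work beside the members were read from lists chosen with earlier results known. Among 12 further genes of procollagen modification and folding, P3h2, a prolyl 3-hydroxylase, and Colgalt2, a galactosyltransferase of hydroxylysine, rose and none fell. P3h2 had 27.8, 26.1 and 32.3 RPKM in cKO, against 16.96, 17.24 and 10.4 RPKM in control (log2 fold change 0.71, adjusted p = 0.0275), and with size factors its adjusted p was 0.0523. Colgalt2 had 9.54, 7.71 and 8.59 RPKM in cKO, against 3.83, 4.78 and 3.72 RPKM in control (log2 fold change 0.86, adjusted p = 0.0187). Sparc, a collagen-binding matricellular protein, had a log2 fold change of -0.34 (adjusted p = 0.139) and P4hb, the shared subunit of prolyl 4-hydroxylase, of 0.27 (adjusted p = 0.208).

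Of 8 genes of propeptide cleavage 5 were tested, and 1 fell. Adamts2, the procollagen N-proteinase, had 39.2, 34.1 and 37.5 RPKM in cKO, against 69.9, 77.5 and 69.6 RPKM in control. The log2 fold change came to -0.98 (SE 0.13, adjusted p = 0.0101), and it stayed past the threshold with size factors and with all 6 libraries (adjusted p = 0.0337). Its relative Adamts14 had -1.10 (adjusted p = 0.0526), Pcolce2, a relative of Pcolce, 0.28 (adjusted p = 0.275) and Tll1, a relative of Bmp1, -0.11 (adjusted p = 0.748).

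None of 12 genes of procollagen export passed the threshold, the nearest being the coat component Sec24c with a log2 fold change of 0.56 (adjusted p = 0.0558), ahead of Klhl12 with 0.41, Mia2 with 0.30 and Sec31a with 0.24. With all 6 libraries Klhl12 had 0.17, and Mia2, at 0 RPKM in control 3, had 1.22. None of 16 genes of general folding in the endoplasmic reticulum passed it either. There Hsp90b1 had a log2 fold change of 0.44 (adjusted p = 0.0849), Hspa5 of 0.35 (adjusted p = 0.232), Pdia3 of 0.23 and Calr of 0.25. Of 10 targets of heat shock factor 2 fell and none rose. Hspa1b had 61.1, 43.7 and 30.5 RPKM in cKO, against 217, 144 and 275 RPKM in control (log2 fold change -2.001, adjusted p = 0.0141), and Hspa1a had -1.89 (adjusted p = 0.0194). Hspd1 had 0.34 (adjusted p = 0.15) and Hsph1 -0.46 (adjusted p = 0.158). Control 3 had 4.73 RPKM of Hsph1, below every cKO library, and with all 6 libraries Hsph1 had -0.06. The median log2 fold change was 0.09 for modification and folding, -0.11 for propeptide cleavage, 0.14 for export, 0.06 for general folding, -0.35 for fibrillar collagens and -0.20 for heat shock factor targets, against 0.14 over all genes tested. Leaving out control 1 left 1 control, and the calls of all 9 genes named as risen or fallen in these lists and among the collagens were lost. Their directions were kept there, with a log2 fold change of -1.05 for Adamts2 and -0.48 for Col1a2. A fit with 1 control cannot show whether a lost call comes from that library or from the smaller number. Of 15 alternatives, 12 kept the call of Adamts2 and of Hspa1b, 10 that of Hspa1a, 9 those of Colgalt2 and Col3a1, 7 that of Col1a1, 6 that of Col5a1, 5 that of P3h2 and 4 that of Col1a2.

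PRMT5 methylates Sm proteins of the splicing machinery, and the PSC tables give for each gene the share of its reads that lie in introns. Fkbp10 stood out among the members. Its intron share was 5.03%, 5.01% and 4.08% in cKO PSCs, against 0.911%, 1.04% and 2.98% in control PSCs, from 469, 345 and 315 intron reads in cKO, against 71, 59 and 87 in control. All 3 cKO libraries were above all 3 controls, and control 3 was nearest to them. The log2 odds differed by 1.87 (SE 0.21, unadjusted p = 0.000414, adjusted p = 0.0836, limma), which missed the threshold. The call depended on the test: it passed among genes with a mean of at least 5 RPKM (adjusted p = 0.0307) and in an edgeR test of group by read class on exon and intron reads of 5 libraries (2.33, adjusted p = 3.95e-05), which was added after the limma result had been seen. It did not pass with all 6 libraries in limma (1.45, adjusted p = 0.346) or edgeR (1.78, adjusted p = 0.164).

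Fkbp10 overlaps Nt5c3b, a nucleotidase gene on the other strand, whose exons cover 432 bases of Fkbp10 introns in GENCODE. The sources used here do not say if counting used strand. Nt5c3b had 19.4, 18.5 and 19.0 RPKM in cKO, against 10.3, 10.7 and 12.4 RPKM in control (log2 fold change 0.80, adjusted p = 0.0129). This call was kept in 11 of 15 alternatives and lost in 4, among them all 6 libraries in limma (adjusted p = 0.0614). It was also lost without control 1 (log2 fold change 0.77) and without control 2 (0.83), fits that each had 1 control. At the exon density of Nt5c3b those 432 bases would carry 117, 79 and 95 reads in cKO, against 50, 50 and 37 in control. Without that number of reads, 352, 266 and 220 intron reads of Fkbp10 remained in cKO, against 21, 9 and 50 in control. These are estimates that assume even coverage. Exons of Nt5c3b also cover 193 bases of Fkbp10 exons, and intron reads of Nt5c3b were not taken off. How many reads of either gene were counted for the other was not tested. Over all 12 alternatives the log2 difference of Fkbp10 stayed between 1.22 and 2.33, and 2 of them called it.

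No member passed the threshold for intron share in limma, where 0% of 10697 genes were called higher and 0.00935%, 1 gene, lower, with 1777 genes at an unadjusted p under 0.05. In the edgeR test 3.2% of 12493 genes were called higher. Plod2 had the highest intron share of the members, 25.7%, 25.4% and 20.9% in cKO, against 20.2%, 20.3% and 31.5% in control. The groups overlapped through control 3. Crtap had 0.763%, 1.06% and 0.652% in cKO, against 0.439%, 0.318% and 0.290% in control, from 15, 18 and 12 intron reads in cKO, against 8, 5 and 3 in control. These groups did not overlap, but the counts are small (log2 odds 0.59, adjusted p = 0.32, limma). Exons of 4930520O04Rik, on the other strand, cover 972 bases of Crtap introns, and their part in these reads was not tested. Serpinh1 had 0.832%, 0.527% and 0.479% in cKO, against 1.14%, 0.865% and 0.945% in control (log2 odds -0.45, adjusted p = 0.445). Pcolce had 0.534%, 0.484% and 0.426% in cKO, against 0.811%, 0.647% and 1.57% in control (log2 odds -0.33, adjusted p = 0.485). Exons of Fbxo24 cover 617 bases of Pcolce introns and those of Gm36266 cover 174, and their part was not tested either. Over the 6 libraries, 2 of 10 members were higher without overlap, against 14.4% of 10297 genes, and 2 of 10 were lower without overlap, against 6.2%.

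P4ha1 had 8.96%, 6.44% and 4.89% in cKO, against 9.35%, 7.49% and 16.8% in control, and Bmp1 had 3.45%, 3.55% and 4.26% in cKO, against 3.90%, 4.09% and 14.4% in control. For both, control 3 was the highest library. P4ha2 had 8.71%, 4.69% and 6.14% in cKO, against 4.68%, 9.75% and 7.90% in control, Plod1 had 2.30%, 2.86% and 2.47% in cKO, against 2.09%, 2.49% and 2.90% in control, and Plod3 had 5.55%, 6.65% and 6.27% in cKO, against 5.85%, 4.15% and 6.12% in control. All 3 overlapped. Over all genes the intron share was 10.3%, 9.74% and 9.52% in cKO, against 8.11%, 8.73% and 11.6% in control. The limma test of intron shares had little power at this number of libraries, so a missed threshold does not show that a share did not change.

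**Figure D4:**
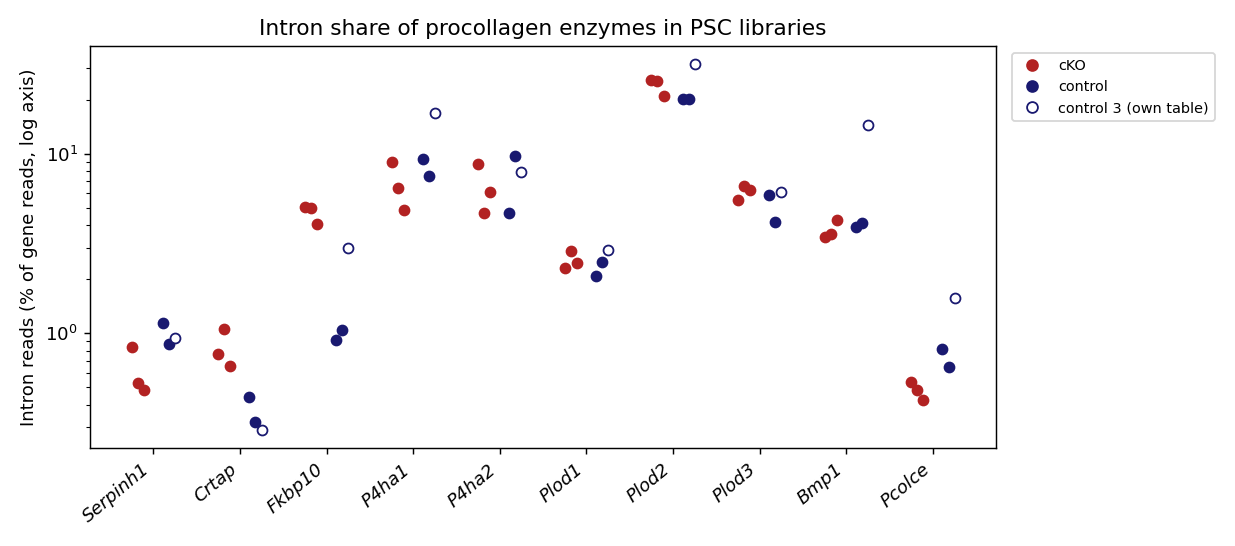
Intron reads as a percentage of all reads of the gene (log axis) in each PSC library. Fkbp10 was at 4.08% to 5.03% in cKO and 0.911% to 2.98% in control, and control 3 was the highest control for 7 of the 10 members, all but Serpinh1, Crtap and P4ha2.

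In osteoclasts no member passed the threshold. Of the 10724 genes tested with edgeR 0.0373% were called (4 genes, 510 at an unadjusted p under 0.05), and of the members 8 passed the filter on low counts, with 0 called and 0 at an unadjusted p under 0.05; DESeq2 called 0 as well. Total counts were 3608940, 1234919 and 984885 in cKO, against 2513440, 2606215 and 2805824 in control. Control 3 had 524 CPM of Xist, where the other 5 libraries had at most 0.274 CPM, and 3.83 CPM of the Y-linked Ddx3y, where the others had 53.3 to 67.8 CPM. The osteoclast markers Acp5, Ctsk, Mmp9, Dcstamp, Ocstamp, Nfatc1 and Calcr were above 0 in all 6 libraries. Of these 7, 0 passed the threshold, 3 had an unadjusted p under 0.05 and 6 had a log2 fold change above 0 (edgeR). Ctsk was lower without overlap, at 4483, 4644 and 4489 CPM in cKO, against 9119, 8509 and 5632 CPM in control. The cause was not tested.

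Plod1, with a deposited exon length of 6765 bases, drew the most reads of the members in osteoclasts. It had 220, 245 and 245 CPM in cKO, against 219, 248 and 224 CPM in control (log2 fold change 0.03, SE 0.11, adjusted p = 0.983). Its groups overlapped, where in PSCs they did not. Plod3 had 143, 191 and 184 CPM in cKO, against 148, 165 and 142 CPM in control (log2 fold change 0.16, SE 0.12, adjusted p = 0.95), and Crtap had 56.2, 66.3 and 68.6 CPM in cKO, against 59.7, 58.5 and 52.9 CPM in control (log2 fold change 0.13, SE 0.14, adjusted p = 0.958). P4ha1 had 56.2, 48.7 and 40.5 CPM in cKO, against 59.7, 57.0 and 63.4 CPM in control. It was the 1 member of 8 with every cKO library below every control, against 5.53% of all genes tested, and none was higher without overlap, against 5.03%. The log2 fold change of P4ha1 was -0.26 (SE 0.15, adjusted p = 0.95).

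Serpinh1 varied widely within groups, with 24.1, 12.6 and 56.1 CPM in osteoclasts of cKO, against 40.1, 26.0 and 12.2 CPM in control (log2 fold change 0.15, SE 0.40, adjusted p = 0.976). Summed markers of mesenchymal cells had the same order of libraries within each group, 160, 130 and 468 CPM in cKO, against 419, 227 and 90.5 CPM in control. Of these 10 markers, 6 were above 0 in every library, and Lum was at 0 in 4 of 6. Their part in the Serpinh1 level was not tested. Bmp1 had 17, 2 and 11 reads in cKO, against 25, 12 and 9 in control, Pcolce had 32, 6 and 14 reads in cKO, against 22, 13 and 14 in control, and P4ha2 had 15, 14 and 3 reads in cKO, against 9, 11 and 10 in control. At such counts no difference was detectable at this depth. Plod2, with 7, 1 and 0 reads in cKO, against 0, 3 and 2 in control, and Fkbp10, with 12, 4 and 3 reads in cKO, against 15, 10 and 4 in control, did not pass the filter.

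**Figure D5:**
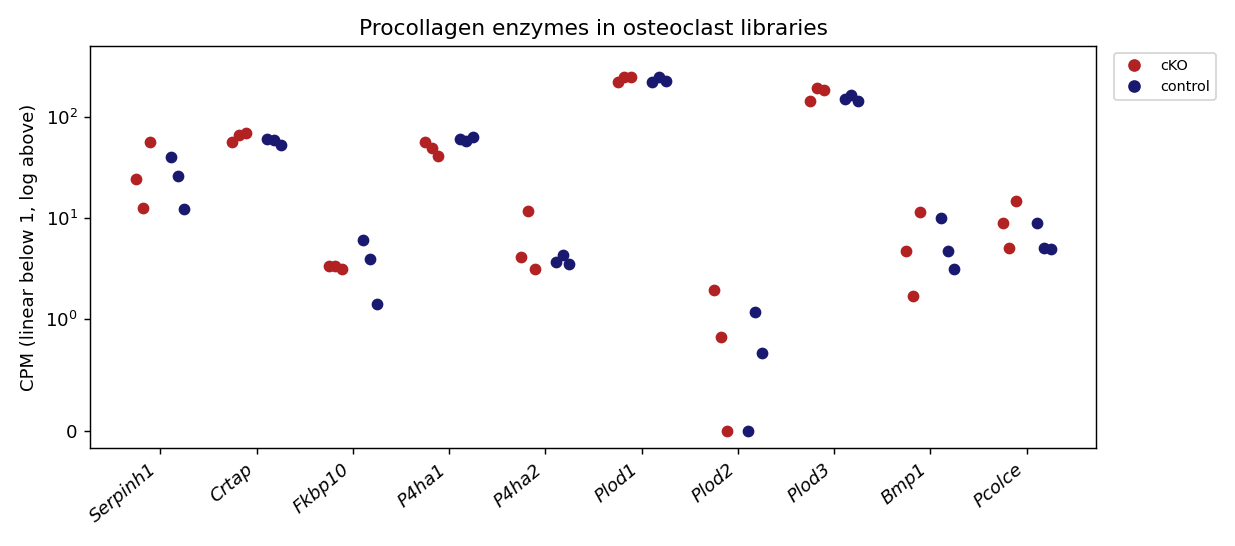
CPM of the 10 members in each osteoclast library (linear below 1, log above), cKO left and control right of each gene. P4ha1 was at 40.5 to 56.2 CPM in cKO and 57.0 to 63.4 CPM in control, and Plod1 and Plod3 had the highest CPM in every library, on a scale that does not correct for length.

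The order of the members differed between the cell types. Per kilobase of exon, osteoclast levels were highest for Plod3 (38.2 in cKO and 33.6 in control), Crtap (35.9 in cKO and 32.2 in control) and Plod1 (35.0 in cKO and 34.1 in control), in CPM per kilobase. The ranges of these 3 over the 6 libraries overlapped. Serpinh1 had 12.7 in cKO and 10.7 in control and P4ha1 11.8 in cKO and 14.6 in control, and Plod2 was lowest with 0.220 in cKO and 0.148 in control. In PSCs the order by mean RPKM over 6 libraries was Serpinh1 (1116), Pcolce (392), Fkbp10 (201), Plod2 (93.2), P4ha1 (92.0), Crtap (86.5), Bmp1 (59.5), Plod1 (49.05), Plod3 (22.4) and P4ha2 (19.3). The library ranges of Plod2, P4ha1 and Crtap overlapped, as did those of Bmp1 and Plod1, of Plod1 and Plod3 and of Plod3 and P4ha2, while the other neighbours in this order were apart. The tables were normalised separately, so the levels of the cell types are given side by side with no test.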

How the data were processed

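RNA-seq libraries of sorted PSCs and cultured osteoclasts were analysed from 3 deposited tables. Samples were grouped by their labels. The authors deposited RPKM and the ratio of intron to total gene reads (unit other, a share) for 5 PSC libraries, RPKM, shares and exon and intron read counts for PSC control 3, and raw read counts for 6 osteoclast libraries. The notes of the submitters name FastQC 0.1.1.8, Trim Galore 0.6.4, kallisto 0.46.0 and GRCm38. For the RPKM and intron values, the aligner and the handling of strand were not found in the sources used here. The osteoclast table also holds 5 columns of the authors' own comparison (fold changes, p-values and their corrections), which were not used.

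PSC expression was tested with limma 3.58.1 (constant prior) on log2(RPKM + 1) over genes with a mean of at least 1 RPKM, so fold changes of low genes are understated. Intron shares were tested with limma on log2((share + 0.005)/(1 - share + 0.005)). Osteoclast counts were tested with edgeR 4.0.16 (quasi-likelihood, TMM, filterByExpr). P-values were adjusted by Benjamini-Hochberg over all genes tested, with a threshold of 0.05. Replicates are separate samples by label, and p-values measure the spread between them. Exon reads were recovered from the RPKM steps and came out whole, within 0.02 reads, for 97.8% of 23755 detected genes. For 3037 genes this needed a fitted exon length. edgeR on these reads called 869 genes. The SEs given for edgeR fits include the spread between libraries as well as counting error. Reads without molecular identifiers are not independent molecules. DESeq2 1.42.0 and R 4.3.3 were used for alternatives. Scripts were tested on simulated data.

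The members and lists were chosen with earlier results of these data known. Named genes were all members, Prmt5 and, in each list, up to 4 genes with the smallest unadjusted p in PSCs. Nt5c3b and Znhit1 were named as overlapping genes after their values were seen. The edgeR test of intron share, its trended limma version and the 6-library edgeR fit were added after seeing the data. The planned description of proteins was not made.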

Additional observations from a re-analysis of the deposited data

Results flagged for a closer look

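P4ha1 had a log2 fold change of 0.46 in PSCs and -0.26 in osteoclasts. All 3 cKO libraries were above all 3 controls in PSCs and below all 3 controls in osteoclasts. The difference between the cell types was not tested, since the tables hold different units, and neither change passed its own threshold.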

How the results depend on the processing

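In PSCs 1 member was called, and 13 of 15 alternatives changed that count to 0 and 2 to 2 members. It was 0 with all 6 libraries, size factors, TMM factors, a pseudocount of 0.1, a mean above 0 RPKM, edgeR on recovered reads of 5 or 6 libraries, and a range of 0 to 0 when 1 library was left out, and it was 2 (Plod1 and Plod3) with a mean of at least 5 RPKM or a trended prior. Genes called numbered 925, against 166 with all 6 libraries, 388 with a mean above 0 RPKM, 213 with edgeR on all 6 libraries and 93 to 458 without 1 library. For intron share, members called numbered 0, against 1 (Fkbp10) with a mean of at least 5 RPKM and 1 with the edgeR interaction. Genes called numbered 1, against 0 with all 6 libraries, 121 with a mean of at least 5 RPKM, 9 with a trended prior, 435 with the edgeR interaction, 15 with that test on 6 libraries and 0 to 2 without 1 cKO library. In osteoclasts 4 genes were called, against 46 with no filter, 0 with 10 reads in every library and 0 to 9 without 1 library, and no member was called in any of them.

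Signs turned as follows in PSC expression. With size factors they were Prmt5 -0.09, Serpinh1 -0.10, P4ha2 -0.16, Plod2 -0.01, Crtap -0.14 and Fkbp10 -0.06. With TMM factors they were Prmt5 -0.08, Serpinh1 -0.09, P4ha2 -0.15, Crtap -0.13 and Fkbp10 -0.04. With edgeR on 5 libraries they were Prmt5 -0.10, Serpinh1 -0.11, P4ha2 -0.16, Crtap -0.13 and Fkbp10 -0.07, and on 6 libraries P4ha2 -0.07, Crtap -0.08 and Tll1 0.17. With all 6 libraries in limma Tll1 had 0.31. Without control 1 Prmt5 had -0.12. Without control 2 Serpinh1 had -0.15, P4ha2 -0.07, Crtap -0.04 and Fkbp10 -0.08. Without cKO 1 Prmt5 had -0.02, without cKO 2 Crtap had -0.04, and without cKO 3 P4ha2 had -0.04 and Tll1 0.06. In intron share, Prmt5 had 0.12 without control 1, and P4ha2 0.43 without control 2 and 0.11 without cKO 2. In osteoclasts Serpinh1 had -0.21 without control 3 and -0.36 without cKO 3, Bmp1 0.47 without control 1, 0.07 without cKO 1 and 0.20 without cKO 2, and Plod1 -0.00 without control 1. Over all runs without 1 library, the ranges were -0.12 to 0.23 for Prmt5, -0.15 to 0.29 for Serpinh1, -0.07 to 0.08 for P4ha2, -0.08 to 0.30 for Fkbp10 and -0.20 to 0.06 for Tll1 in PSC expression, -1.27 to 0.12 for Prmt5 and -0.64 to 0.43 for P4ha2 in intron share, and -0.36 to 0.60 for Serpinh1, -0.00 to 0.09 for Plod1 and -0.64 to 0.47 for Bmp1 in osteoclasts. The cause was not tested.

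The replicate numbers did not pair the libraries: same-numbered libraries deviated from their group means with correlations of -0.02, -0.06 and -0.02 in PSCs and -0.07, 0.07 and -0.07 in osteoclasts. With the number as a block, 0 members and 4 genes were called in PSC expression, where P4ha2 had -0.04 and Tll1 0.06, and 0 genes in intron share and 0 in osteoclasts. The block also ended the calls of Nt5c3b in PSCs (adjusted p = 0.111) and of Prmt5 in osteoclasts (adjusted p = 0.119).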
